A study of Mus musculus with 16 samples.

Results

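Carboxylesterases are serine hydrolases that cut ester, amide and thioester bonds, and the mouse carries a large family of them, the Ces genes. The 10 genes described here were chosen by name: 6 of the Ces1 subfamily (Ces1b, Ces1c, Ces1d, Ces1e, Ces1f and Ces1g), 3 of the Ces2 subfamily (Ces2a, Ces2c and Ces2e) and Ces3a. The choice was made with earlier results of these data known, so counts of members beside shares of all genes are no test of the family. The members are 10 of the 24970 genes in the deposited liver count table, where each gene is represented by the RefSeq transcript with the highest mean count. All 10 entered the tests, and the lowest count of a member in any library was 37.

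The data are poly(A) RNA-seq of liver from 16 mice, 4 in each of 4 groups. Mice of the strain humanized PXR-CAR-CYP3A4/3A7, which carries human drug-sensing receptors and human drug-oxidizing enzymes, received TCPOBOP, a compound that activates the constitutive androstane receptor (CAR) of the mouse, or vehicle. Wild-type C57BL/6 Ntac mice received TCPOBOP or vehicle. The dose was 3 mg/kg, given in 2 administrations 24 h apart, the treatment lasted 48 h, and the vehicle was 2% DMSO in corn oil. Both humanized groups carry all the humanized genes at once, so a difference between the strains cannot be assigned to one receptor, to the other or to CYP3A. The sources used here do not give the promoters of the human genes or the sex and age of the mice, and the human transcripts were not analysed here.

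In liver, carboxylesterases hydrolyse ester drugs and prodrugs, pesticides and stored or circulating lipids. Most stay in the endoplasmic reticulum, and a few are secreted into plasma. CAR and PXR are nuclear receptors that bind DNA together with RXR at pairs of AGGTCA-like half-sites and raise genes of drug metabolism, and TCPOBOP is known as a strong agonist of mouse CAR and a poor one of human CAR.

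All of the members lie on chromosome 8 (RefSeq annotation of GRCm38.p6, the assembly also called mm10). The Ces1 genes run on the minus strand from Ces1b (NM_001081372, 93056725 to 93080017) to Ces1g (NM_021456, 93302369 to 93337209). The Ces2 and Ces3 genes run on the plus strand from Ces2a (NM_133960, 104734003 to 104741634) to Ces3a (NM_198672, 105048576 to 105061928), with Ces2c (NM_145603, 104847068 to 104854483) and Ces2e (NM_172759, 104926260 to 104934672) between them. Over aligned bases, with gaps left out, coding sequences of the 15 pairs of Ces1 members were 74.5 to 91.2% identical, highest for Ces1b with Ces1c. Those of the 3 Ces2 pairs were 83.0 to 84.0% identical, and those of the 27 pairs between subfamilies 62.2 to 67.3%. With gaps counted as differences, the pairs between subfamilies were 54.9 to 59.2% identical. This likeness bears on how far reads can be assigned. Of the windows of 50 bases along the transcript, 40.2% in Ces2c occurred unchanged in another Ces transcript, 38.2% in the pseudogene Ces2d-ps. The share was 30.8% in Ces3a, all with Ces3b, 13.4% in Ces1c, 10.8% in Ces1b and at most 3.36% in the other 6. By this measure the counts of Ces2c, Ces3a, Ces1c and Ces1b are less certain than those of Ces2a. Ces1b shared 9.92% of its windows with Ces1c, which had a mean of 28988 counts in a library against 655 for Ces1b. How many reads were misassigned was not tested. Ces2d-ps itself had at most 9 counts in a library.

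RefSeq promoter windows of GRCm38.p6 were at hand for 7 of the 10 members. The 250 bases before the start of the 3 Ces2 members are shown 5′ to 3′, since these genes had the largest responses to TCPOBOP among the 10 members. Capitals mark AGGTCA, a nuclear receptor half-site, and ACTTTG. They lie at chr8:104733753-104734002 for Ces2a, chr8:104846818-104847067 for Ces2c and chr8:104926010-104926259 for Ces2e, all on the plus strand.
Ces2a: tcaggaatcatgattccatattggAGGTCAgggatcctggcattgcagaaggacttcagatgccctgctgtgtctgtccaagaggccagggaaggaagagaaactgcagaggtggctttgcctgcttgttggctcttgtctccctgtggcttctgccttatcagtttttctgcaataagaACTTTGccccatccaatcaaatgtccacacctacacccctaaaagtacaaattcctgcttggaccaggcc
Ces2c: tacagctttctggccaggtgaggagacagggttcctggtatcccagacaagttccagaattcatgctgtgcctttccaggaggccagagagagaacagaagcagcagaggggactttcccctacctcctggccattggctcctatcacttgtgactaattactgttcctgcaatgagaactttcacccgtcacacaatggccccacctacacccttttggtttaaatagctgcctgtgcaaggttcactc
Ces2e: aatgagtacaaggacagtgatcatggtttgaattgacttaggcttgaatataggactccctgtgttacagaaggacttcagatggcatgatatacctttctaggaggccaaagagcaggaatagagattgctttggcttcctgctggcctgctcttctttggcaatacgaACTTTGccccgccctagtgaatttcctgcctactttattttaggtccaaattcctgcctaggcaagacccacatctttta
The half-site AGGTCA occurred 226 bases before the start of Ces2a and in no other window of a member, counting both strands. It was present in 14% of all 32851 windows of this length, so its presence in 1 of 7 is no feature of the family. ACTTTG stood 70 bases before the start of Ces2a and 80 bases before that of Ces2e, and 12.6% of all windows held it. AGTTCA, another half-site form, was found in the window of Ces1b, and 11.8% of all windows held it. The direct repeat DR4, which is AGGTCA on both sides of 4 free bases and is of a kind that CAR and PXR can bind, was in none of the 7 windows and in 5 of all windows.

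Another sequence was found in Ces1 windows. TTATGTAA, the core of the D-box bound by clock-output factors such as DBP, occurred in 4 of 4 Ces1 windows (Ces1b, Ces1c, Ces1e and Ces1g) and in 0 of 3 Ces2 windows, against 0.819% of all windows. With the other Ces genes added it was in 5 of 6 Ces1 windows, Ces1h having none, and in 0 of 6 Ces2 windows. A further window at a second start of Ces1b held no match, and Ces1d and Ces1f had no window. These matches were searched for after the sequences had been seen, AGGTCA and ACTTTG do not overlap in them, and a match is no proof of a site. The 40 bases around the match are given 5′ to 3′ on the minus strand, with the match in capitals, for Ces1c (chr8:93131354-93131393), Ces1e (chr8:93229677-93229716) and Ces1g (chr8:93337418-93337457).
Ces1c: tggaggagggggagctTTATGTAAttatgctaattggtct
Ces1e: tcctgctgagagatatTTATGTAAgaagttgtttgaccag
Ces1g: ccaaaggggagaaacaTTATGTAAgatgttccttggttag
In Ces1b the match stood 84 bases before the start, in Ces1c 94, in Ces1e 81 and in Ces1g 232. Over their aligned bases the windows of Ces1b and Ces1c were 94.6% identical, so these 2 windows are not independent of each other.

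The libraries held 14019983 to 16755802 counts in humanized TCPOBOP, 12612610 to 16904182 in humanized vehicle, 30228724 to 37998473 in wild-type TCPOBOP and 11827994 to 19483951 in wild-type vehicle mice. The greater depth thus coincided with the wild-type TCPOBOP group. Levels are CPM, scaled with TMM factors, and carry an SD over n = 4 mice. The labels' genotypes and treatment showed in marker genes. Nr1i3, the mouse CAR gene, was at 3.45 and 2.20 CPM on average in humanized TCPOBOP and humanized vehicle livers, against 52.3 and 100.2 CPM in wild-type TCPOBOP and wild-type vehicle livers. Cyp2b10, the classical CAR target, averaged 105 CPM in humanized TCPOBOP and 17.4 CPM in humanized vehicle livers, and 3197 CPM in wild-type TCPOBOP and 48.2 CPM in wild-type vehicle livers. Ddx3y, a gene of the Y chromosome, was at 19.4 to 99.6 CPM over all libraries. Xist, which female cells express, had at most 6 counts in a library, so every liver had the pattern of a male. All 10 hepatocyte markers were detected, with summed levels of 54612 to 84677 CPM in humanized TCPOBOP and 61819.9 to 72840.3 CPM in humanized vehicle livers. The sum was 32441 to 47388 CPM in wild-type TCPOBOP livers, below the 68289 to 104362 CPM of wild-type vehicle livers. Of those 10, 2 fell in the wild-type comparison. Of 6 intestine markers, Alpi and Cdx1 stood at 0 in every library and 3 were tested. The 6 summed to 160 to 335 CPM in humanized TCPOBOP, 104 to 220.3 CPM in humanized vehicle, 235 to 586 CPM in wild-type TCPOBOP and 282 to 526 CPM in wild-type vehicle livers. With TCPOBOP 1 of them rose in humanized and 2 fell in wild-type liver. Of 5 pancreatic acinar markers, Prss2 and Pnlip stood at 0 in every library, and the sum was 3.93 to 20.4 CPM over all libraries. The 1 acinar marker tested fell in wild-type liver. Of 8 stellate markers 1 fell in humanized liver with TCPOBOP. The part of these markers in the changes of the members was not tested. In bulk liver, fewer cells of a type and less RNA per cell cannot be told apart.

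In wild-type liver TCPOBOP raised Ces2a and Ces2c 10.6-fold each. Ces1d and Ces1g rose less than 2-fold, and Ces3a fell. Past the threshold, an adjusted p under 0.05 in edgeR's quasi-likelihood test with Benjamini-Hochberg adjustment over all 12913 genes tested, 4 of the 10 members rose and 1 fell. Among all genes tested 8.1% rose and 4.99% fell. The median log2 change was 0.15 over the members and -0.02 over all genes, and the median size of change without its sign was 0.71 over the members and 0.29 over all genes. With all libraries thinned to 6831626 counts, Ces2a and Ces2c kept their calls, and Ces1d (adjusted p = 0.0547) and Ces1g (adjusted p = 0.0560) did not pass.

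Ces2a encodes an esterase related to human CES2, an enzyme known for splitting prodrugs such as irinotecan. It stood at 5503, 7297, 6574 and 6284 CPM in the 4 wild-type TCPOBOP livers, against 422, 768, 502 and 721 CPM in the 4 wild-type vehicle livers. Every treated liver lay far above every vehicle liver. The log2 change was 3.41 ± 0.21 (SE, adjusted p = 8.80e-09). In humanized liver the gene was at 785, 779.7, 733 and 644 CPM with TCPOBOP and 546, 548, 602 and 561 CPM with vehicle. Here too all 4 treated livers were above all 4 vehicle livers, but the change of 0.38 ± 0.19 did not pass (adjusted p = 0.320), with a 95% confidence interval of -0.03 to 0.79. The effect in humanized liver was thus smaller than in wild-type liver by 3.03 ± 0.28 on the log2 scale in the test of the interaction (-3.03, adjusted p = 4.06e-06).

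Ces2c, whose enzyme hydrolyses tri- and diacylglycerols, was the other member with a large response. It was at 99.2, 152, 119.8 and 136 CPM in wild-type TCPOBOP livers, against 6.30, 6.08, 13.5 and 21.4 CPM in wild-type vehicle livers. The groups did not overlap, and the log2 change was 3.41 ± 0.43 (adjusted p = 2.75e-05). In humanized livers the values were 6.79, 17.8, 34.2 and 23.4 CPM with TCPOBOP and 6.94, 7.67, 5.18 and 4.69 CPM with vehicle. Of the treated humanized livers 3 of 4 were above all vehicle livers, and replicate 1 lay among them. The change of 1.75 ± 0.42 passed (adjusted p = 0.0387), and the difference between the strains' effects did not (-1.65 ± 0.58, adjusted p = 0.0939). The call in humanized liver was lost without wild-type TCPOBOP replicates 3 or 4, humanized TCPOBOP replicates 3 or 4 or any 1 of the 4 humanized vehicle replicates, with adjusted p between 0.0519 and 0.129. It was also lost with library totals in place of TMM factors (1.69, adjusted p = 0.0632) and with only the groups compared in the fit (1.78, adjusted p = 0.0642). The interaction passed without wild-type vehicle replicate 4 (-2.11, adjusted p = 0.0294) or humanized TCPOBOP replicate 3 (-2.01, adjusted p = 0.0424).

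Ces2e, a Ces2 enzyme of liver and gut, rose in humanized liver and not in wild-type liver. It was at 85.3, 110.1, 79.1 and 74.0 CPM in wild-type TCPOBOP and 100.1, 112, 85.0 and 118 CPM in wild-type vehicle livers, which overlapped. That change of -0.25 ± 0.18 did not pass (adjusted p = 0.431). In humanized livers Ces2e was at 75.8, 112, 109 and 113 CPM with TCPOBOP, against 40.6, 40.5, 28.8 and 35.0 CPM with vehicle. All 4 treated livers lay above all 4 vehicle livers, and the gene rose 2.82-fold (1.5 ± 0.18, adjusted p = 0.00116). The test of the interaction gave 1.75 ± 0.26 (adjusted p = 5.03e-04). Humanized vehicle livers averaged 36.2 ± 5.57 CPM, against 104 ± 14.5 CPM in wild-type vehicle livers. After TCPOBOP, humanized livers averaged 102 ± 17.7 CPM and wild-type livers 87.1 ± 16 CPM, a log2 difference of 0.23 ± 0.18 (adjusted p = 0.361).

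**Figure D1:**
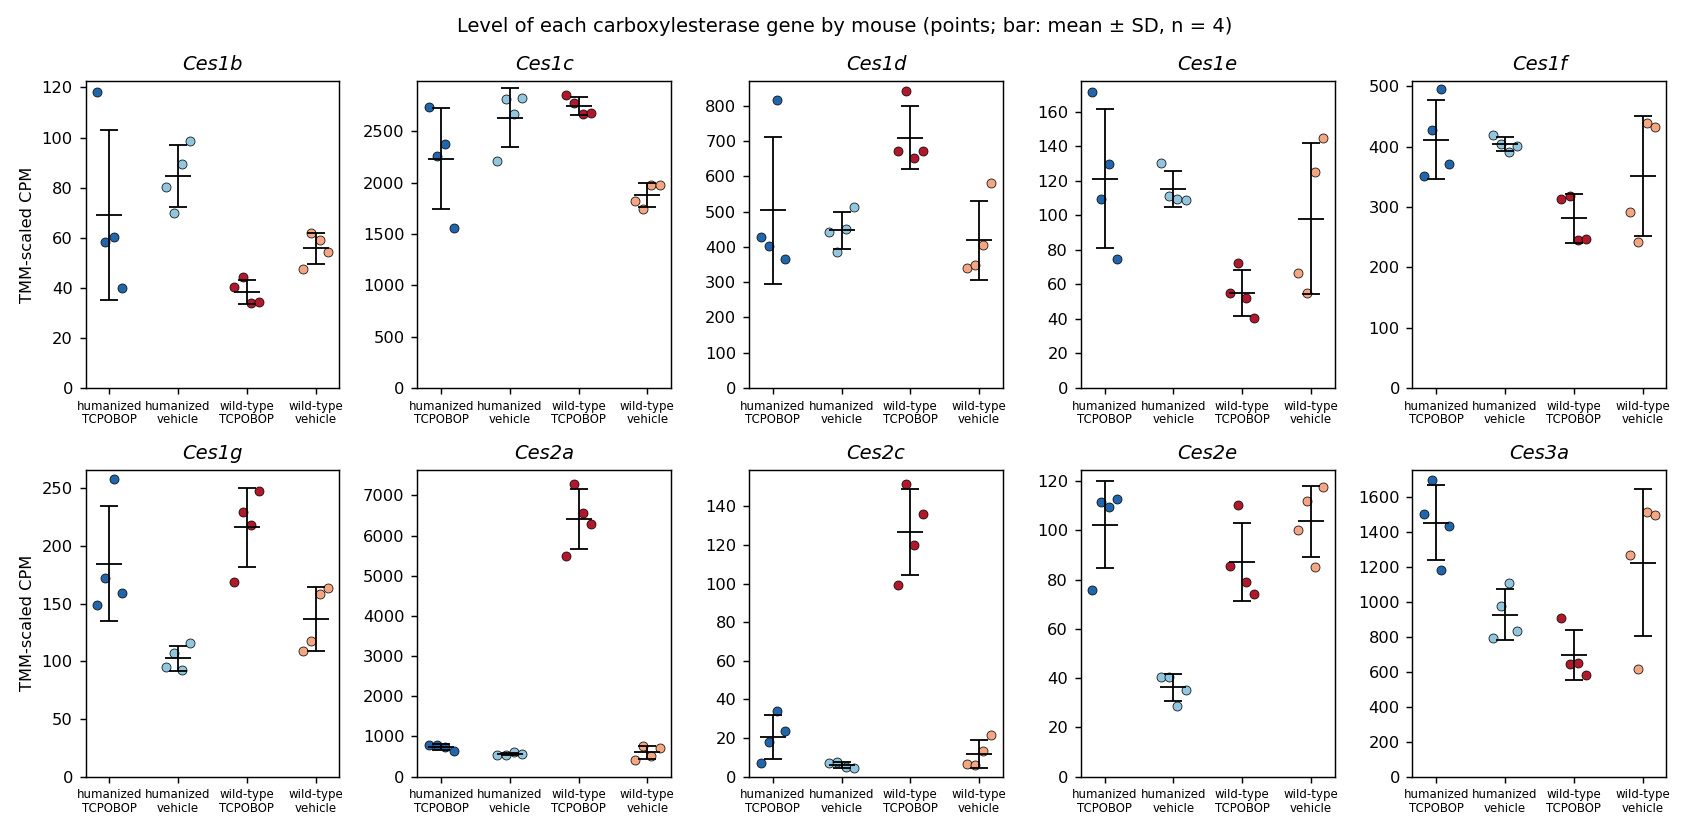
Level of each of the 10 genes in TMM-scaled CPM (vertical axes, linear and starting at 0), with a point for each mouse and bars for the mean ± SD of 4 mice in each group. Ces2a and Ces2c stand apart in wild-type TCPOBOP livers, while Ces2e is lowest in humanized vehicle livers at 28.8 to 40.6 CPM.

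Among the 6 Ces1 genes of wild-type liver, Ces1d and Ces1g rose with TCPOBOP, and the other 4 did not pass. Ces1c, the main carboxylesterase of mouse plasma, was at 2852, 2776, 2673 and 2681 CPM in wild-type TCPOBOP livers, against 1824, 1748, 1976 and 1974 CPM in wild-type vehicle livers. The groups did not overlap, yet the change of 0.55 ± 0.18 missed the threshold (adjusted p = 0.0532). It passed when same-numbered wild-type mice were paired (0.53, adjusted p = 0.0358), by DESeq2 (0.53, adjusted p = 0.00768), with library totals (0.64, adjusted p = 0.00979), with the accessions of a gene summed (0.55, adjusted p = 0.0387) and with only the groups compared in the fit (0.53, adjusted p = 0.0435). It also passed without humanized TCPOBOP replicate 1 (adjusted p = 0.0317) or 4 (adjusted p = 0.0270), whose values enter the shared estimate of spread.

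Ces1d encodes triacylglycerol hydrolase, which mobilizes stored fat for lipoprotein assembly. In wild-type TCPOBOP livers it was at 672, 843, 652 and 673 CPM, against 339.8, 349, 405 and 579.9 CPM in wild-type vehicle livers. The lowest treated liver lay above the highest vehicle liver, and the rise of 0.76 ± 0.24 passed narrowly (adjusted p = 0.0426). The call was lost without any 1 of the 4 wild-type TCPOBOP replicates, wild-type vehicle replicates 1, 2 or 3, or any 1 of the 4 humanized vehicle replicates, with changes of 0.66 to 0.80 and adjusted p from 0.0542 to 0.129. With RLE in place of TMM factors it was lost as well (0.74, adjusted p = 0.0556).

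Ces1g, another lipid-handling esterase of the endoplasmic reticulum, rose in both strains. In humanized livers it stood at 149, 172, 258 and 159 CPM with TCPOBOP, against 95.2, 107, 92.7 and 116 CPM with vehicle. In wild-type livers it stood at 168, 229.6, 218 and 247 CPM with TCPOBOP, against 109, 117, 158 and 163 CPM with vehicle. Treated and vehicle livers did not overlap in either strain. The log2 change was 0.84 ± 0.20 (adjusted p = 0.0349) in humanized and 0.66 ± 0.20 (adjusted p = 0.0338) in wild-type liver, and the difference of 0.19 ± 0.28 between them did not pass (adjusted p = 0.770), with an interval of -0.40 to 0.77. The wild-type call was lost without wild-type TCPOBOP replicates 2, 3 or 4 or wild-type vehicle replicates 1 or 2, with adjusted p from 0.0659 to 0.118. The humanized call was lost without wild-type TCPOBOP replicate 3, humanized TCPOBOP replicate 3 or any 1 of the 4 humanized vehicle replicates, with adjusted p from 0.0522 to 0.118. It was also lost with library totals (0.75, adjusted p = 0.0911) and with only the groups compared in the fit (0.86, adjusted p = 0.0730).

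The other 3 Ces1 genes did not pass in either strain. Ces1e encodes egasyn, which anchors beta-glucuronidase in the endoplasmic reticulum, and was at 55.0, 72.6, 52.0 and 40.4 CPM in wild-type TCPOBOP livers, against 66.8, 54.9, 125 and 145 CPM in wild-type vehicle livers. Vehicle replicates 1 and 2 lay among the treated livers and the other 2 above them. The change was -0.83 ± 0.29 (adjusted p = 0.0671), and it passed without wild-type vehicle replicate 1 (adjusted p = 0.0403) or 2 (adjusted p = 0.0131) or humanized TCPOBOP replicate 1 (adjusted p = 0.0398) or 4 (adjusted p = 0.0483). By DESeq2 Ces1e fell (-0.86, adjusted p = 0.0391), and it also passed with libraries thinned to equal depth (-0.86, adjusted p = 0.0485). Ces1f, which encodes an acylglycerol hydrolase, was at 313, 318, 245 and 247 CPM with TCPOBOP against 292, 242, 438 and 433 CPM with vehicle in wild-type livers (-0.32 ± 0.19, adjusted p = 0.335). Its vehicle replicates 3 and 4 lay above the treated livers, replicate 1 among them and replicate 2 below them. Ces1b was at 40.4, 44.3, 34.0 and 34.4 CPM in wild-type TCPOBOP livers, against 47.5, 62.0, 59.0 and 54.3 CPM in wild-type vehicle livers. Its groups did not overlap, and its change of -0.54 ± 0.24 did not pass (adjusted p = 0.172). With same-numbered wild-type mice paired it passed (-0.56, adjusted p = 0.0246), as it did with only the groups compared in the fit (-0.56, adjusted p = 0.0292) and without humanized TCPOBOP replicate 1 (-0.55, adjusted p = 0.0265).

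Ces3a, a liver esterase whose nearest copy is Ces3b, was the 1 member that edgeR called as lower in wild-type liver. It was at 907, 645, 652 and 583 CPM in wild-type TCPOBOP livers, against 1269, 616, 1512 and 1496 CPM in wild-type vehicle livers. Vehicle replicate 2 lay within the range of the treated livers, and the other 3 lay above them. The change was -0.81 ± 0.25 (adjusted p = 0.0349). Pairing same-numbered wild-type mice ended the call (-0.76, adjusted p = 0.0778), as did leaving out wild-type TCPOBOP replicates 2, 3 or 4 or wild-type vehicle replicates 1, 3 or 4 (adjusted p 0.0663 to 0.120). Library totals (-0.74, adjusted p = 0.0540), a replicate block over all groups (-0.80, adjusted p = 0.0584) and only the groups compared in the fit (-0.82, adjusted p = 0.0859) ended it as well. In humanized liver Ces3a was at 1501, 1698, 1180.4 and 1432 CPM with TCPOBOP and 791, 976, 1107 and 832 CPM with vehicle. There all 4 treated livers lay above all 4 vehicle livers, although the change of 0.65 ± 0.25 did not pass (adjusted p = 0.170). It passed without wild-type vehicle replicate 2 (0.67, adjusted p = 0.0398). The effects in the 2 strains differed by 1.46 ± 0.35 (interaction, adjusted p = 0.0145).

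With same-numbered wild-type mice paired, 5 members rose and 1 fell in wild-type liver, in place of 4 and 1. That pairing was chosen after seeing the data, and it also called more of all genes than the unpaired fit, as given below. In humanized liver the unpaired fit called 3 members that rose (Ces2c, Ces2e and Ces1g) and 0 that fell, where 1.32% of all genes rose and 1.19% fell. By DESeq2 0 members fell there as well, and 0 of the members with a lower level had an unadjusted p under 0.05 in edgeR. The median log2 change was 0.28 over the members and 0.02 over all genes. Ces1c (-0.24 ± 0.18), Ces1d (0.17 ± 0.24), Ces1e (0.08 ± 0.29) and Ces1f (0.03 ± 0.19) overlapped between treated and vehicle livers and did not pass. Ces1b was at 118, 58.1, 60.4 and 40 CPM with TCPOBOP and 80.4, 69.8, 89.3 and 98.6 CPM with vehicle (-0.29 ± 0.24, adjusted p = 0.578). Without humanized TCPOBOP replicate 1, its highest liver, that change passed (-0.65, adjusted p = 0.0356).

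In the test of the difference between the 2 effects, Ces2e and Ces3a were higher and Ces2a lower in the humanized strain, 2 and 1 of 10 members. Of all genes 3.48% were higher and 3.98% lower. Ces1c missed the threshold with a difference of -0.78 ± 0.25 (adjusted p = 0.0705), and it passed by DESeq2 (-0.72, adjusted p = 0.0145), with library totals (-1.01, adjusted p = 0.00832) and without humanized TCPOBOP replicate 1 (-0.86, adjusted p = 0.0262).

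**Figure D2:**
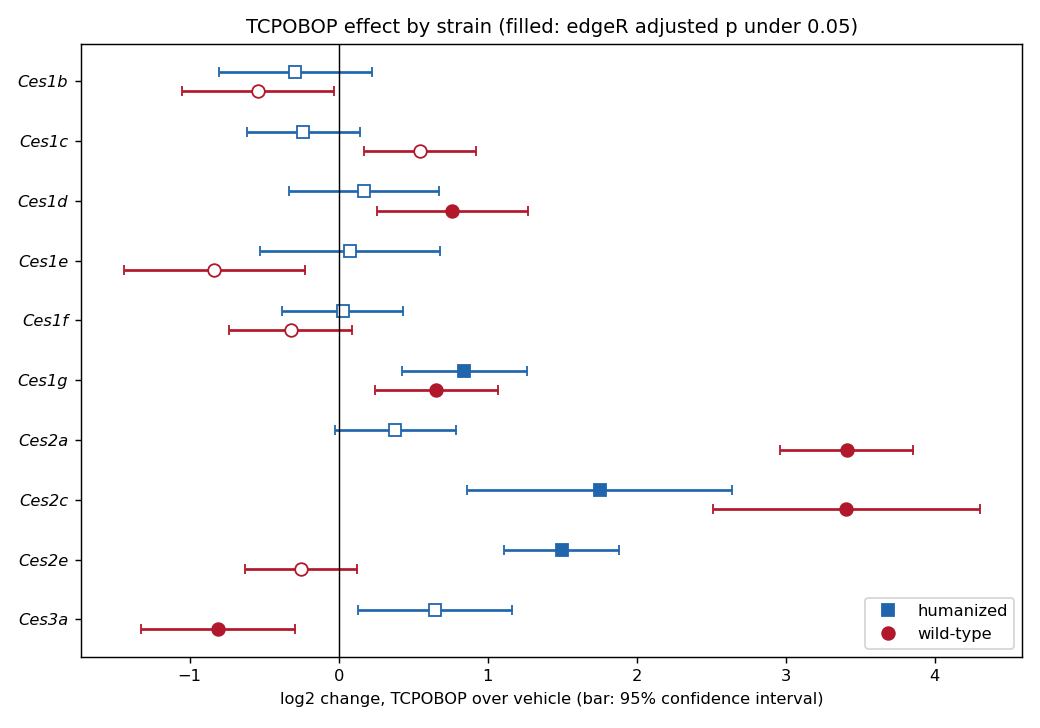
Log2 change with TCPOBOP over vehicle (horizontal axis) for each gene, as squares for humanized and circles for wild-type liver with 95% confidence intervals, filled where the edgeR adjusted p is under 0.05. Ces2a lies at 0.38 in humanized and 3.41 in wild-type liver, while Ces2e lies at 1.5 in humanized and -0.25 in wild-type liver.

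Under vehicle, the strains differed in 1 member. Ces2e was 2.86-fold lower in humanized than in wild-type livers (-1.52 ± 0.18, adjusted p = 1.75e-04), and 0 members rose by edgeR, against 7.11% of all genes that rose and 8.95% that fell. Ces1b (0.60 ± 0.24, adjusted p = 0.0944) and Ces1c (0.49 ± 0.18, adjusted p = 0.0705) had all 4 humanized livers above all 4 wild-type livers without passing, and both had an unadjusted p under 0.05. Ces1c passed by DESeq2 (0.45, adjusted p = 0.0253) and with library totals (0.51, adjusted p = 0.0382). Ces1b passed with library totals (0.64, adjusted p = 0.0463) and with only the groups compared in the fit (0.58, adjusted p = 0.0277). Without humanized TCPOBOP replicate 1 Ces1b passed (adjusted p = 0.0154), and Ces1c passed without replicate 1 (adjusted p = 0.0434) or 4 (adjusted p = 0.0420) of that group. Ces3a (-0.40, adjusted p = 0.251) passed without wild-type vehicle replicate 2 (-0.63, adjusted p = 0.0337), and Ces2c (-0.96, adjusted p = 0.118) without humanized TCPOBOP replicate 1 (-0.98, adjusted p = 0.0477). Markers of other liver cells moved with the strain here. Of 10 Kupffer cell markers, 7 fell, with a summed level of 291 to 517 CPM in humanized vehicle against 568 to 1279 CPM in wild-type vehicle livers. Erythroid markers fell in 4 of 5 cases, at 105 to 132 CPM against 146 to 233 CPM, and 2 of 8 endothelial and 2 of 8 stellate markers fell. Of the hepatocyte markers 1 fell, of the intestine markers 2, of the acinar markers 1, and 1 of 6 cholangiocyte markers rose. Their part in the difference of Ces2e was not tested.

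After TCPOBOP, 4 members were higher and 2 lower in humanized than in wild-type livers, where 11.8% of all genes were higher and 12.8% lower. Ces2a was 8.72-fold lower (-3.12 ± 0.21, adjusted p = 1.79e-08) and Ces2c 6.12-fold lower (-2.61 ± 0.41, adjusted p = 1.90e-04), with no overlap between the strains. Ces3a (1.06 ± 0.25, adjusted p = 0.00497) and Ces1e (1.14 ± 0.29, adjusted p = 0.00892) were higher in all 4 humanized livers than in any wild-type liver. Ces1f was at 351, 428, 496 and 372 CPM in humanized TCPOBOP livers, against 313, 318, 245 and 247 CPM in wild-type TCPOBOP livers (0.55 ± 0.20, adjusted p = 0.0470). That call was lost without any 1 of the 4 wild-type TCPOBOP replicates, humanized TCPOBOP replicates 2 or 3 or any 1 of the 4 humanized vehicle replicates, with adjusted p from 0.0528 to 0.132. It was also lost with library totals (0.39, adjusted p = 0.203) and with no filter on low counts (0.53, adjusted p = 0.0906). Ces1b passed at 0.85 ± 0.24 (adjusted p = 0.0175), with 3 of 4 humanized livers above all wild-type livers. Without humanized TCPOBOP replicate 1, at 118 CPM, the difference was 0.48 (adjusted p = 0.0610), and without wild-type TCPOBOP replicates 3 or 4 the adjusted p was 0.0562 or 0.0583. With only the groups compared in the fit it was 0.86 (adjusted p = 0.0572). Ces1d (-0.50, adjusted p = 0.138) passed without humanized TCPOBOP replicate 3 (-0.83, adjusted p = 0.00717), and Ces1c passed with library totals (-0.50, adjusted p = 0.0270). Markers differed here as well. Of 10 hepatocyte markers 3 were higher in humanized TCPOBOP than in wild-type TCPOBOP livers, with the sums given above. Lower were 3 of 8 endothelial markers, which summed to 128 to 357 CPM in humanized TCPOBOP against 382 to 489 CPM in wild-type TCPOBOP livers. Of 8 stellate markers 4 were lower, at 75.3 to 206 CPM in humanized TCPOBOP against 202 to 292 CPM in wild-type TCPOBOP livers, and 1 cholangiocyte, 2 intestine and 1 acinar marker were higher. Their part in the differences of the members was not tested.

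These shifts changed the make-up of the summed RNA of the 10 members. The sums leave out Ces3b and Ces2g, which averaged 147 and 19.6 CPM per kb of transcript in wild-type vehicle livers. Per kilobase of transcript, the 10 members summed to 2432 to 3266 CPM per kb in humanized TCPOBOP and 2476 to 2888 CPM per kb in humanized vehicle livers. They summed to 5509 to 6414 CPM per kb in wild-type TCPOBOP livers, against 2100.3 to 2914 CPM per kb in wild-type vehicle livers. The treated and vehicle sums overlapped in the humanized strain and were apart in the wild type. The 3 Ces2 members summed to 382 to 448 CPM per kb in humanized TCPOBOP and 297 to 321 CPM per kb in humanized vehicle livers. They summed to 2889.8 to 3841 CPM per kb in wild-type TCPOBOP livers, against 255 to 437 CPM per kb in wild-type vehicle livers. The Ces2 sums were thus apart in both strains, with the wider gap in the wild type. In humanized livers the sums of the 6 Ces1 members overlapped, at 1349.6 to 2167 CPM per kb with TCPOBOP and 1792 to 2163 CPM per kb with vehicle. In wild-type livers they did not, at 2049 to 2258 CPM per kb with TCPOBOP and 1363 to 1760.1 CPM per kb with vehicle. As a share of all gene-level counts, the 10 members took 0.495 to 0.633% in humanized TCPOBOP, 0.523 to 0.558% in humanized vehicle, 1.10 to 1.27% in wild-type TCPOBOP and 0.376 to 0.594% in wild-type vehicle livers.

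**Figure D3:**
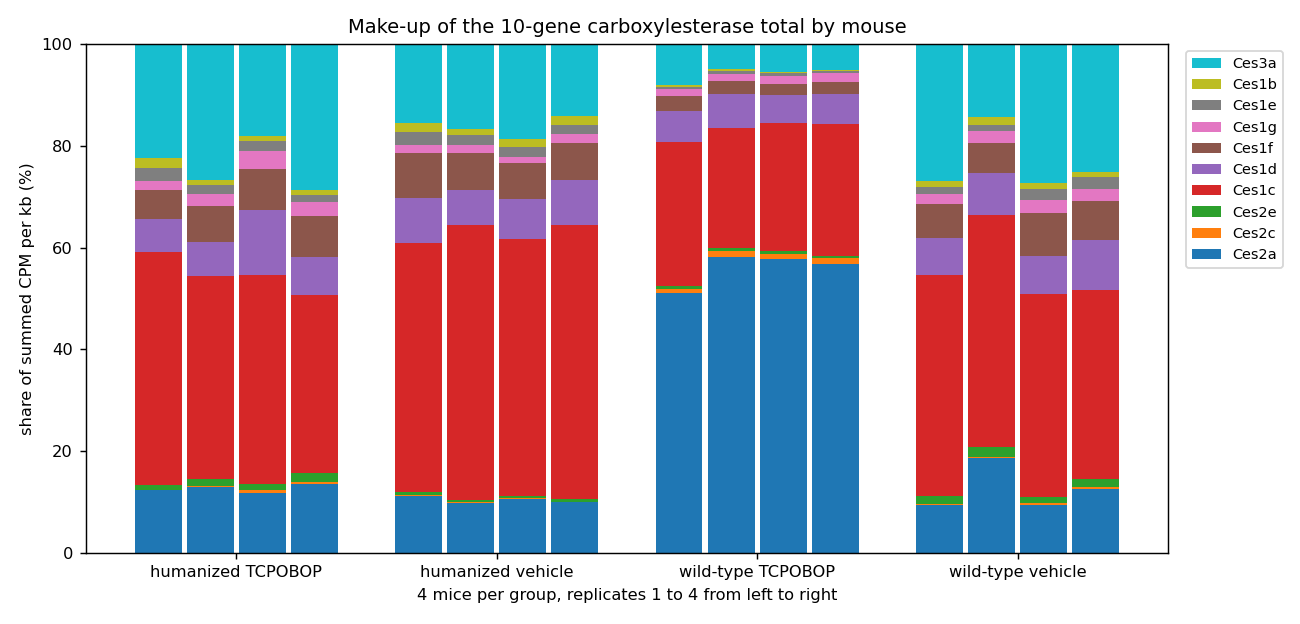
Share of each gene in the summed CPM per kb of the 10 genes (vertical axis, percent), as a stacked bar for each of the 4 mice in a group. Ces2a, the lowest segment, makes up 51.0 to 58.0% in wild-type TCPOBOP livers and at most 18.7% in any liver of the other groups.

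Ces2a made up 12.6 ± 0.754% of this sum in humanized TCPOBOP livers and 10.4 ± 0.668% in humanized vehicle livers (SD, n = 4). In wild-type livers its share was 55.8 ± 3.30% with TCPOBOP and 12.5 ± 4.36% with vehicle. Ces1c made up 40.5 ± 4.48% in humanized TCPOBOP and 51.8 ± 2.54% in humanized vehicle livers. Its share was 25.8 ± 1.94% in wild-type TCPOBOP and 41.5 ± 3.73% in wild-type vehicle livers, although its level in CPM was higher in each treated than in each vehicle liver. Ces3a took 24.1 ± 4.73% in humanized TCPOBOP and 16.3 ± 1.93% in humanized vehicle livers, and 5.87 ± 1.47% in wild-type TCPOBOP and 23.4 ± 6.16% in wild-type vehicle livers. A share falls when another member rises, so these values describe the mixture and not each gene.

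The order of levels per kilobase differed between groups at its top and at its foot. In wild-type TCPOBOP livers Ces2a led with 3273 ± 379 CPM per kb, followed without overlap by Ces1c with 1502 ± 46.4. Next came Ces1d and Ces3a, whose ranges overlapped, then Ces1f, Ces1g, Ces2c, Ces2e, Ces1e and Ces1b, of which Ces1g with Ces2c, Ces2e with Ces1e and Ces1e with Ces1b overlapped. In wild-type vehicle livers Ces1c led with 1029 ± 62.2 CPM per kb, and Ces3a, Ces2a, Ces1d and Ces1f followed, each overlapping its neighbour. Ces1g, Ces1e, Ces2e and Ces1b came after them, also as a chain of overlapping neighbours, and Ces2c was lowest at 6.01 ± 3.69 CPM per kb.

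In humanized livers Ces1c led under both treatments, with 1223 ± 272 CPM per kb after TCPOBOP and 1440.1 ± 158 CPM per kb after vehicle. Ces3a and Ces2a came next in both groups with no overlap between them. Ces1d overlapped Ces2a only after TCPOBOP, and Ces1f overlapped Ces1d in both groups. Below them, Ces1g, Ces1e, Ces2e and Ces1b overlapped in a chain after TCPOBOP. After vehicle the order was Ces1e, Ces1b, Ces1g and Ces2e, where only Ces1b and Ces1g overlapped. Ces2c was lowest, at 10.4 ± 5.80 CPM per kb with TCPOBOP and 3.11 ± 0.719 CPM per kb with vehicle.

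The remaining Ces genes place the members in the family. Ces2g, in the same cluster as Ces2e, was at 34.8, 46.0, 41.4 and 41.0 CPM in humanized TCPOBOP livers, against 15.7, 22.6, 16 and 19.2 CPM in humanized vehicle livers. In wild-type livers it was at 83.5, 94.2, 94.0 and 102 CPM with TCPOBOP and 58.9, 66.7, 47.1 and 51.1 CPM with vehicle. It rose with TCPOBOP without overlap in humanized (1.15 ± 0.16, adjusted p = 0.00165) and wild-type liver (0.74 ± 0.16, adjusted p = 0.00391). Like Ces2e, it was lower in humanized than in wild-type livers under vehicle (-1.61 ± 0.17, adjusted p = 2.21e-05). Ces3b averaged 334 ± 99.1 CPM in humanized TCPOBOP and 229 ± 89.8 CPM in humanized vehicle livers (0.54 ± 0.31, adjusted p = 0.392). It averaged 183 ± 50.6 CPM in wild-type TCPOBOP and 353 ± 128 CPM in wild-type vehicle livers (-0.95 ± 0.32, adjusted p = 0.0554), and the effects differed by 1.49 ± 0.44 (adjusted p = 0.0486). Since Ces3b holds 30.8% of the windows of Ces3a, these 2 results may not be independent, which was not tested. Ces4a was low, at 2 to 42 counts in a library. Under vehicle it was lower in humanized than in wild-type livers (-2.56 ± 0.58, adjusted p = 0.0121). Its change with TCPOBOP did not pass in humanized (1.95 ± 0.62, adjusted p = 0.103) or wild-type liver (-1.13 ± 0.46, adjusted p = 0.122). The interaction passed (3.09 ± 0.77, adjusted p = 0.0193). Ces1a, Ces2b, Ces2d-ps, Ces2f, Ces2h and Ces5a had at most 15 counts in a library and were not tested, and counts of Ces1h were not analysed here.

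**Figure D4:**
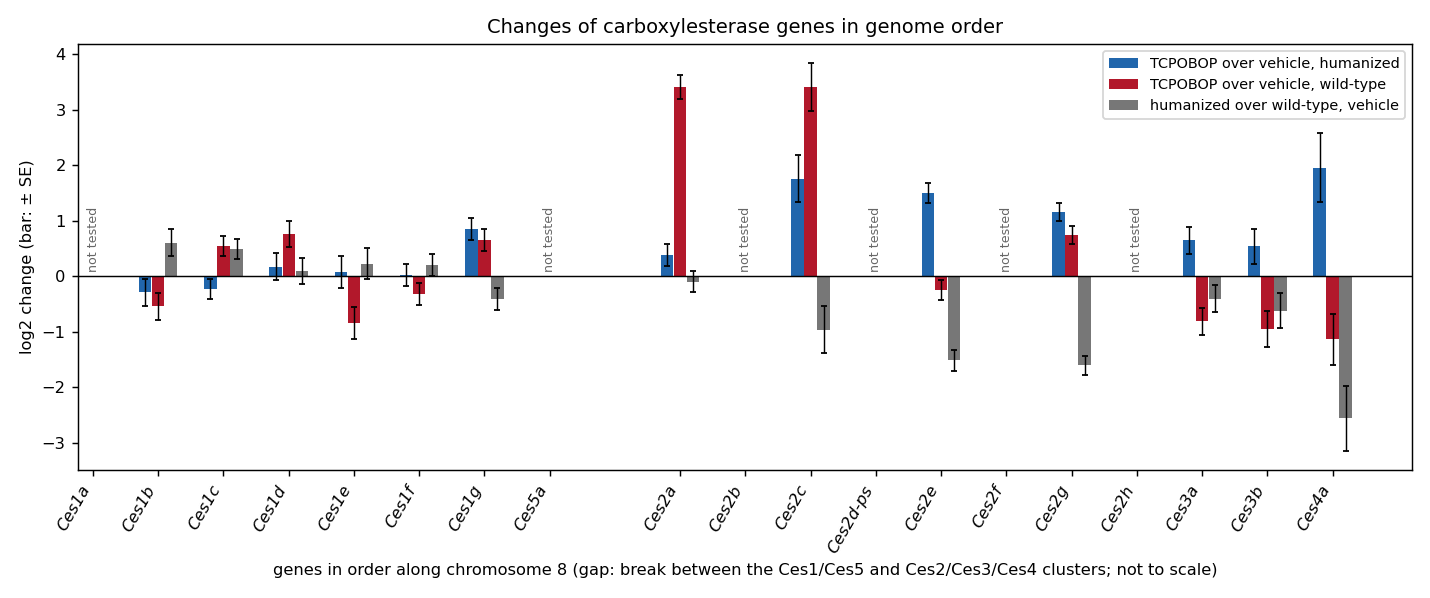
Log2 change (vertical axis, bars ± SE) of the Ces genes in their order along chromosome 8, for TCPOBOP over vehicle in humanized and wild-type liver and for humanized over wild-type liver under vehicle. The changes over 2 on the log2 scale are those of Ces2a and Ces2c, at 3.41 each in wild-type liver, and the strain difference of the low-count gene Ces4a, at -2.56.

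A list of 37 symbols of other ester and lipid hydrolases gives enzymes that act beside the family. It holds hormone-sensitive lipase under 2 names, Lipe and Hsl, so the symbols are not all distinct genes. In the table were 36 of the symbols, and 35 were tested. In wild-type liver 2 of the 35 rose and 5 fell, where 8.1% of all genes rose and 4.99% fell, and the median log2 change was -0.15. Abhd5, the co-activator of adipose triglyceride lipase, averaged 64.6 ± 6.02 CPM with TCPOBOP and 30.7 ± 4.04 CPM with vehicle (1.07 ± 0.15, adjusted p = 8.02e-05), and Afmid, a formamidase of the kynurenine path, rose by 0.71 ± 0.19 (adjusted p = 0.0157). Among those that fell were monoacylglycerol lipase, Mgll (-0.92 ± 0.19, adjusted p = 0.00286), hormone-sensitive lipase, Lipe (-0.86 ± 0.21, adjusted p = 0.00876), and Notum, which removes palmitoleate from Wnt proteins (-1.17 ± 0.25, adjusted p = 0.00343). Pnpla7, a lysophospholipase (-0.76 ± 0.18, adjusted p = 0.00691), and hepatic lipase, Lipc (-0.72 ± 0.20, adjusted p = 0.0193), fell as well.

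In humanized liver 3 of the 35 rose and 1 fell, where 1.32% of all genes rose and 1.19% fell, and the median was 0.17. Mgll averaged 159 ± 25.1 CPM with TCPOBOP and 80.4 ± 15 CPM with vehicle (0.98 ± 0.19, adjusted p = 0.0131). Abhd6, another monoacylglycerol hydrolase (0.69 ± 0.17, adjusted p = 0.0366), and endothelial lipase, Lipg (1.75 ± 0.43, adjusted p = 0.0400), also rose, and Afmid fell (-0.72 ± 0.19, adjusted p = 0.0484). In the interaction Mgll (1.91 ± 0.27, adjusted p = 4.15e-04), Lipe (1.39), Notum (1.35), Pnpla7 (1.08) and Lipc (0.92) were higher and Afmid (-1.43) lower in the humanized strain, 5 and 1 of 35, where 3.48% of all genes were higher and 3.98% lower.

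Genes with the closest pattern over the 16 libraries were found by the root mean square difference of log2 CPM, after each gene's own mean was taken off. For Ces2a these were Gstt3, a glutathione transferase, at 0.25, and Colgalt2 at 0.38, where the spread of Ces2a itself was 1.47. Within the family its nearest gene was Ces2c at 0.72, farther away than both. For Ces2c the nearest were Cyp2c50 (0.60) and Cyp2c54 (0.63), drug-oxidizing cytochrome P450 genes. For Ces3a they were Kmo, of the kynurenine path (0.15), and Cyp2e1, the ethanol-oxidizing cytochrome P450 (0.17), ahead of Ces3b (0.33). For Ces2e they were Rps6ka1 (0.30) and Natd1 (0.32), and no other Ces gene was closer than 0.52. The nearest for Ces1c were Nudt19 (0.15) and Ubac2 (0.17), against 0.28 for its own spread. The own spread was 1.72 for Ces2c, 0.51 for Ces3a and 0.65 for Ces2e. Low values are easy to reach for genes that vary little, so each is set beside its gene's own spread.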

How the data were processed

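The authors deposited 1 table of counts with 40458 RefSeq transcript rows and 16 library columns, all whole numbers, and the authors' alignment used STAR and mm10, with DESeq2 named among the tools, per the submitters' processing notes. RNA was isolated with Trizol and selected by poly(A), per the labels' protocols. The sources used here do not name the counting program, the strandedness or the treatment of multi-mapping reads. Among counts of 20 or more, 74.9% were even, close to the 75% that halved and rounded counts would give, so counting limits are approximate. Accessions were joined to symbols for 40219 entries through RefSeq and 125 through GENCODE, and 114 without a symbol, with 0.227 to 0.582% of a library's counts, stayed genes of their own.

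One model over the 16 libraries was fitted with edgeR 4.0.16, limma 3.58.1 and R 4.3.3, using a mean for each group, filterByExpr, TMM factors and two-sided quasi-likelihood tests. The fit kept 12913 genes, with a common biological coefficient of variation of 0.259 and 12 residual degrees of freedom. Every adjusted p is a Benjamini-Hochberg value over those genes within a comparison, with 0.05 as the threshold, and log2 changes carry an SE and, where given, a 95% confidence interval. Total counts of 11827994 to 37998473 per library set the precision. The code was tested on simulated data. Likeness used a pseudocount of 0.5 CPM and genes with a mean of at least 5 CPM.

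The 4 same-numbered pairs of wild-type TCPOBOP and vehicle mice had correlations of 0.157 to 0.620, highest for replicate 2. These are correlations of deviations from the group means of log2 CPM, with pseudocount 1. Since each was over 0.1, pairing by number was run as an alternative, from the data and not from a label. The main fit was unpaired. A limit of 0.1 does not separate the pairs, since several differently numbered pairs of these groups also passed it. Differently numbered mice of these groups correlated at -0.478 to 0.340, and 4 of the 8 mice correlated best with their own number, so the pairing is uncertain. In the humanized strain the correlations were -0.284 to 0.103, and no pairing was assumed. Nothing in the labels says that replicates of a group came from separate experiments. Alternatives were DESeq2 1.42.0, RLE factors, library totals, no filter, summed accessions, thinning to 6831626 counts, a replicate block, a fit of only the groups compared, and leaving out each library. The members, the hydrolase and marker lists and the motifs were chosen with earlier results of these data known. All 10 members are named, with the other Ces genes and the hydrolases called with TCPOBOP in each strain and in the interaction.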

Additional observations from a re-analysis of the deposited data

Results flagged for a closer look

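Among the 40 sets of 4 mice (10 members in 4 groups), 4 had 1 mouse far from the other 3 by Dixon's test at its 95% critical value, where chance gives about 1 in 20. Ces1d was at 842.9 CPM in wild-type TCPOBOP replicate 2, against 652.4 to 672.9 CPM in the other 3. The same gene was at 815.2 CPM in humanized TCPOBOP replicate 3, against 366.4 to 428.6 CPM in the others, and Cyp2b10 was highest in that liver too, at 201 CPM against 63.3 to 79.7 CPM. Ces1e was at 130.5 CPM in humanized vehicle replicate 1, against 108.6 to 111.4 CPM. Ces2e was at 75.83 CPM in humanized TCPOBOP replicate 1, against 109.3 to 112.6 CPM.

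The effect of TCPOBOP differed between the strains by edgeR's test of the interaction for 3 members. The log2 effect in humanized minus that in wild-type liver was -3.029 for Ces2a (adjusted p = 4.06e-06), 1.748 for Ces2e (adjusted p = 5.03e-04) and 1.461 for Ces3a (adjusted p = 0.0145). The 2 comparisons behind each difference use separate mice. In the test of Ces2e, the strains also differed under vehicle by -1.52.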

How the results depend on the processing

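Of 18 member differences past the threshold, 11 kept their direction and call in every alternative run for them, which were 25 in wild-type liver, 23 in the interaction and 24 in the other comparisons: Ces2a and Ces2c in wild-type liver, Ces2e in humanized liver, Ces2a, Ces2e and Ces3a in the interaction, Ces2e between strains under vehicle, and Ces2a, Ces2c, Ces1e and Ces3a between strains after TCPOBOP. Over 50 member differences and the settings run for each, 1200 values, 1088 kept direction and call, 65 lost the call, 35 gained it and 12 changed sign, none of them a called value. The causes of these shifts were not tested. Library totals in place of TMM factors moved the median of all genes by 0.09 on the log2 scale in wild-type liver, -0.13 in humanized liver, -0.22 in the interaction, 0.03 between strains under vehicle and -0.18 after TCPOBOP. With them, the signs turned for Ces1e (-0.084) and Ces1f (-0.084) in humanized liver and for Ces1b (-0.016) and Ces1g (-0.0024) in the interaction. Leaving out 1 library moved the humanized change of Ces1d from -0.16 to 0.30, of Ces1e from -0.11 to 0.25 and of Ces1f from -0.074 to 0.12. It moved the interaction of Ces1b from -0.10 to 0.44 and of Ces1g from -0.018 to 0.31, and the vehicle difference of Ces1d from -0.010 to 0.29 and of Ces2a from -0.25 to 0.034.

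Counts of genes called depended on the setting. In humanized liver 324 genes were called, against 765 by DESeq2, 182 with only the groups compared in the fit and 209 with a replicate block over all groups. In the interaction 963 were called, against 1477 by DESeq2. Leaving out 1 library gave 1068 to 2190 genes in wild-type liver (1691 with all), 74 to 960 in humanized liver, 575 to 1782 in the interaction, 621 to 3425 between strains under vehicle (2074) and 1963 to 4163 after TCPOBOP (3175).

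Counts of members moved by 1 or 2. In wild-type liver the number that fell was 2 by DESeq2 and after thinning, and 0 with library totals or the replicate block, and the number that rose was 2 after thinning. In humanized liver 1 rose with library totals or with only the groups compared. In the interaction 2 were lower by DESeq2, with library totals or with the replicate block. Under vehicle 1 rose by DESeq2 or with only the groups compared, and 2 with library totals. Leaving out 1 library gave 2 to 5 that rose and 0 to 3 that fell in wild-type liver, 1 to 4 and 0 to 1 in humanized liver, and 2 to 2 and 1 to 2 in the interaction. It gave 0 to 2 and 1 to 2 between strains under vehicle, and 2 to 4 and 2 to 3 after TCPOBOP. The replicate block over all groups also ended the call of Ces2c in humanized liver (1.58, adjusted p = 0.0633) and of Ces1f between strains after TCPOBOP (0.54, adjusted p = 0.0690), and made that of Ces2c in the interaction (-1.94, adjusted p = 0.0492). The block within wild-type mice, chosen after seeing the data, called 2357 genes and changed no member's call other than those of Ces1b, Ces1c and Ces3a. Thinning to equal depth ended the wild-type calls of Ces1d and Ces1g and made that of Ces1e, and changed no other member's call.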
